A study of Homo sapiens with 6 samples.

Results

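The genes described here are 48 ribosome biogenesis and nucleolar genes: the protein components that transcribe, process and assemble ribosomal RNA in the nucleolus, together with subunits of RNA polymerase I. They were chosen by gene symbol from a list of nucleolar processing factors and RNA polymerase I genes, and all 48 were found among the 62754 genes of the deposited tables. The cells were HUDEP-2, a human line of immortalised erythroid progenitors. In 1 group the cells received a lentiviral shRNA against MEN1 (labelled MEN1sh2, genotype MEN1 knockdown), and in the other a non-targeting control shRNA (labelled Controlsh, genotype WT), with 3 biological replicates in each. MEN1 encodes menin, a scaffold protein that joins MLL1 histone methyltransferase complexes to chromatin. Both groups grew in StemSpan SFEM with erythropoietin (3 units/ml), stem cell factor (50 ng/ml), doxycycline (1 µg/ml) and dexamethasone (1e-06 M). Both were selected with puromycin at 2 µg/ml from 24 h after infection for 48 h, and RNA was profiled 72 h after transduction. All MEN1 knockdown libraries carry the same hairpin, so effects of menin loss and off-target effects of the hairpin cannot be told apart.

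Ribosome production starts when RNA polymerase I transcribes a long precursor of the 18S, 5.8S and 28S ribosomal RNAs. Small nucleolar ribonucleoprotein particles (snoRNPs) modify the precursor, the small-subunit processome folds and cuts the 18S part, and separate sets of factors assemble the 60S subunit. In the erythroid lineage, early progenitors make ribosomes at a high rate, and output declines as the cells mature toward globin-filled erythroblasts.

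Levels are given as TPM, the share of a library's transcripts that comes from a gene after scaling for its length. The inferred depth was 18400000 to 35800000 read pairs per library, and 13865 to 14361 genes had a TPM of 1 or more. MEN1 itself measured 41.2, 39.6 and 37.1 TPM in the 3 controls and 6.29, 6.44 and 6.88 TPM in the knockdown replicates, a log2 fold change of -2.42 (SE 0.0803, adjusted p = 8.5e-06), so the target was lower in every library labelled as knockdown. Erythroid markers were present in both groups: 8 of 11 were higher with the MEN1 shRNA and 0 lower, and their summed level was 55542 to 61587 TPM in the controls and 96077 to 108040 TPM in the knockdown. Globin transcripts alone took 5.23 to 5.78% of all TPM in the controls and 9.21 to 10.4% in the knockdown. Among markers of other blood cells, the megakaryocyte sum was 32 to 36.8 TPM in controls and 17.1 to 21.9 TPM in knockdown, with PF4 and PPBP at 0 and 7 of 8 genes under 1 TPM in every library. The granulocyte and monocyte sum was 30.2 to 38.6 and 29.1 to 37.5 TPM, with 6 of 8 genes under 1 TPM in every library and SPI1 giving most of it. The mast cell, basophil and eosinophil sum was 709 to 828 and 475 to 561 TPM, mainly TPSAB1, with CLC at 0. Few genes of these lists were tested. Called lower were 1 of 1 in the megakaryocyte list, 1 of 2 in the granulocyte and monocyte list and 2 of 3 in the mast cell list. In each of them 0 were higher. The lymphoid sum was 15.2 to 20.2 and 12.3 to 14.9 TPM, with MS4A1 at 0. Within that list PTPRC had control and knockdown means of 16.27 and 9.065 TPM and was lower (adjusted p = 0.00124, log2 fold change -0.77). CD3D had means of 0.3965 and 4.403 TPM and was higher (adjusted p = 0.000467, log2 fold change 1.96). These were both chosen after their values were seen. The part of these marker differences in the results below was not tested, and in bulk RNA a change in the mix of cell stages and a change in RNA per cell cannot be told apart.

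Transcripts of the nucleolar machinery were lower after MEN1 knockdown across nearly the whole list. All 48 members passed the filter on low values (TPM of 1 or more in at least 3 libraries). Of the 48, 44 were lower, 1 (UBTF) was higher, and 3 (LTV1, DDX56 and RRN3) did not pass an adjusted p of 0.05 in limma's moderated test on log2(TPM + 1). Over all 14294 genes tested, 31.5% were called lower and 22.1% were called higher. The members' log2 fold changes had a median of -0.79 with quartiles of -1.05 and -0.60, against -0.07 with quartiles of -0.44 and 0.29 over all genes tested. A fall of at least 2-fold was called in 13 members, and in 6.9% of all genes tested.

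The groups did not overlap for 45 members: in 44 of them every knockdown library lay below every control library, a pattern held by 35.9% of all genes tested, and in UBTF every knockdown library lay above. The 44 lower members stood at 21.0 to 88.6% of their control level, with a median of 56.0%. Their adjusted p-values ran up to 0.0301. Summed over the 48 genes, the level was 11470, 11856 and 12196 TPM in the 3 controls and 6360.1, 5652.6 and 5625.6 TPM in the 3 knockdown libraries. This sum was 1.18% ± 0.0363 of all TPM in controls and 0.588% ± 0.0416 in knockdown (SD, n = 3 each), or 49.7% of the control level. NPM1 alone made up 26.8% of the members' sum in controls and 11.4% in knockdown, and without it the other 47 genes stood at 60.2% of control.

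**Figure D1:**
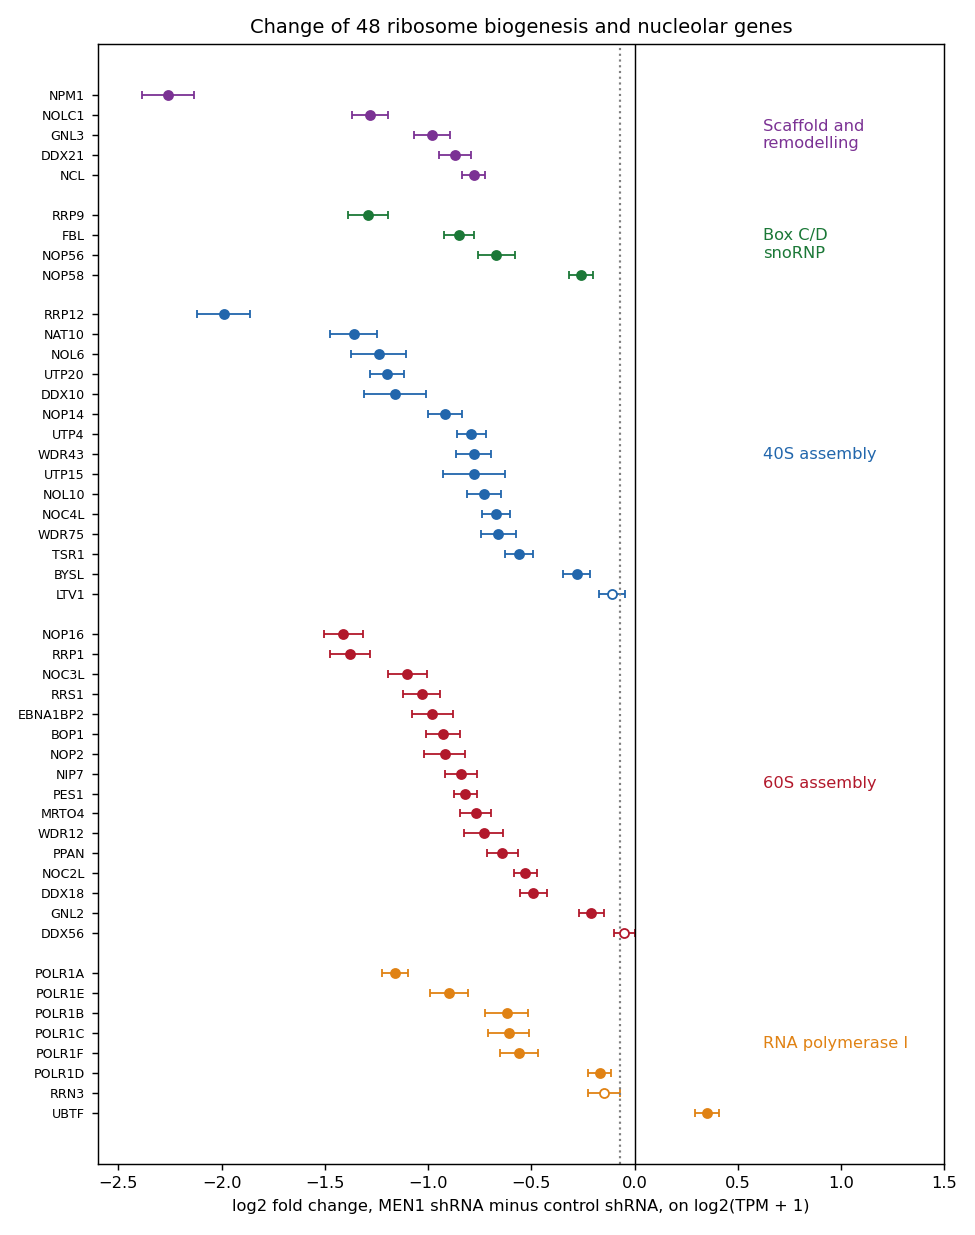
Log2 fold change (x axis, MEN1 shRNA minus control shRNA on log2(TPM + 1)) of each of the 48 members (y axis), coloured by role; points are limma estimates with bars of 1 SE, open points did not pass the threshold, and the dotted line is the median of all genes tested at -0.07. NPM1 at -2.26 and RRP12 at -1.99 lie farthest to the left, and UBTF at 0.35 is the member to the right of 0.

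The size of the fall did not follow the level of the gene in control cells in a simple order. The 7 members under 50 TPM in controls had a median log2 fold change of -0.73, the 13 between 50 and 100 TPM -0.92, the 17 between 100 and 200 TPM -0.64, and the 11 at 200 TPM or more -0.87. Within the knockdown group, replicate 1 was the highest of the 3 libraries in 41 of the 44 lower members. The share of all lower genes with this order was not computed, so it cannot be called a trait of the members. MEN1 itself stood at 6.29, 6.44 and 6.88 TPM in knockdown replicates 1, 2 and 3. The median difference of the members from the control mean was -0.68 on the log2 scale in knockdown replicate 1, -0.90 in replicate 2 and -0.87 in replicate 3, while that of all genes tested was -0.08, -0.08 and -0.05. Each of the 3 knockdown libraries had 46 of 48 members below all controls, against 45.4%, 45.9% and 44.8% of all genes tested in replicates 1, 2 and 3.

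**Figure D2:**
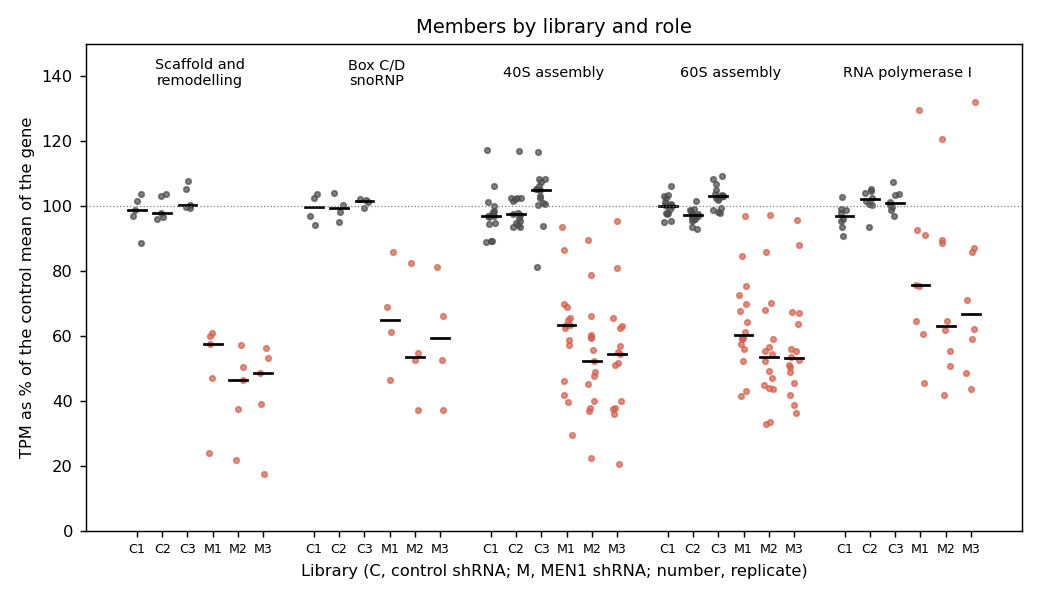
TPM of each member as a percentage of its control mean (y axis) in each library (x axis: C, control; M, MEN1 knockdown; number, replicate), in 5 role groups; dots are genes and bars are medians. The medians of M1 lie above those of M2 and M3 in each role group, and all knockdown medians lie below the control medians.

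Sequence around the transcript starts was examined for the E-box, CACGTG, the palindrome to which dimers of MYC and MAX bind. RefSeq windows (GRCh38.p14) from 250 bases before to 50 bases after the start were matched to 40 of the 48 members, 49 windows in all. BOP1, DDX18, NOL10, NOLC1, NOP58, POLR1E, RRP12 and RRS1 were not matched. An E-box was held by 18 members, and 10 of them are shown as examples. The others were all called lower, with log2 fold changes from -1.24 (NOL6) to -0.21 (GNL2). The following stretches from the 10 members show the E-box in capitals, 5′ to 3′ on the strand of the gene. The first 9 belong to members that were lower in the knockdown and act in snoRNPs, in the nucleolus or in assembly of either subunit, and the last belongs to LTV1, which did not pass the test.
FBL, methyltransferase of box C/D particles, chr19:39846356-39846385, minus strand: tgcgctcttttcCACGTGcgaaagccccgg
RRP9, U3 particle protein, chr3:51941892-51941921, minus strand: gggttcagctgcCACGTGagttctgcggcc
UTP20, 40S processing factor, chr12:101280083-101280112, plus strand: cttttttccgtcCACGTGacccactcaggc
NAT10, 18S rRNA acetyltransferase, chr11:34105602-34105631, plus strand: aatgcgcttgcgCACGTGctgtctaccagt
NOP14, 40S processing factor, chr4:2963374-2963403, minus strand: tccgcggcccggCACGTGtcttagggtagc
WDR43, 40S processing factor, chr2:28894658-28894687, plus strand: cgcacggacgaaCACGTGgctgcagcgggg
GNL3, nucleostemin, chr3:52686026-52686055, plus strand: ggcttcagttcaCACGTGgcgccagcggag
PES1, 60S assembly factor, chr22:30591880-30591909, minus strand: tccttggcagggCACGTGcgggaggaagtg
NOC3L, 60S assembly factor, chr10:94362903-94362932, minus strand: tagggacttcggCACGTGtgtcattccccg
LTV1, late 40S assembly factor, chr6:143843354-143843383, plus strand: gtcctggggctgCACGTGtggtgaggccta
With the first transcribed base counted as 1, the E-box began at base 7 in FBL and GNL3 and at base 4 in WDR43. On the same count it began at base 14 in PES1, 16 in NOP14, 20 in NOC3L and 29 in LTV1. It began 5 bases before the start in RRP9, 10 before it in UTP20 and 15 before it in NAT10.

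Of the 19 E-boxes found in member windows, 13 lay downstream of the start. The main window for all motifs was the 250 bases upstream. The shares by position and by gene below use the wider window, an alternative. In the 250 bases upstream, 5 of 40 members held CACGTG, and 10.2% of their windows did, against 6.34% of all 35116 RefSeq windows. With the 50 bases downstream included, 18 of 40 members held it, and 38.8% of their windows did, against 7.26% of all windows. By position, 26.5% of member windows had an E-box starting in the 50 bases after the start, against 1.18% of the 13856 windows of genes tested and 0.883% of all windows. In the 50 bases before the start the shares were 10.2%, 3.05% and 2.0%. None of the RNA polymerase I members with a window (POLR1A, POLR1B, POLR1C, POLR1D, POLR1F, RRN3 and UBTF) held the E-box in it. By gene, 45% of the 40 members and 13.3% of the 9668 genes tested with a window held one. Members with an E-box in the 300-base window (18 genes) had a median log2 fold change of -0.90 and 17 were lower. Members without one (22 genes) had a median of -0.66, with 19 lower and 1 higher. That group holds all the RNA polymerase I members with a window, and also NPM1 (-2.26), the largest fall. RRP12 (-1.99) and NOLC1 (-1.28) had no window and are in neither group. The difference between the groups was not tested. Among all genes tested with a window, 1284 with an E-box had a median of -0.14 with 39.6% lower, and 8384 without one had a median of -0.09 with 35% lower. A match of letters is a description and does not show that a factor binds there.

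**Figure D3:**
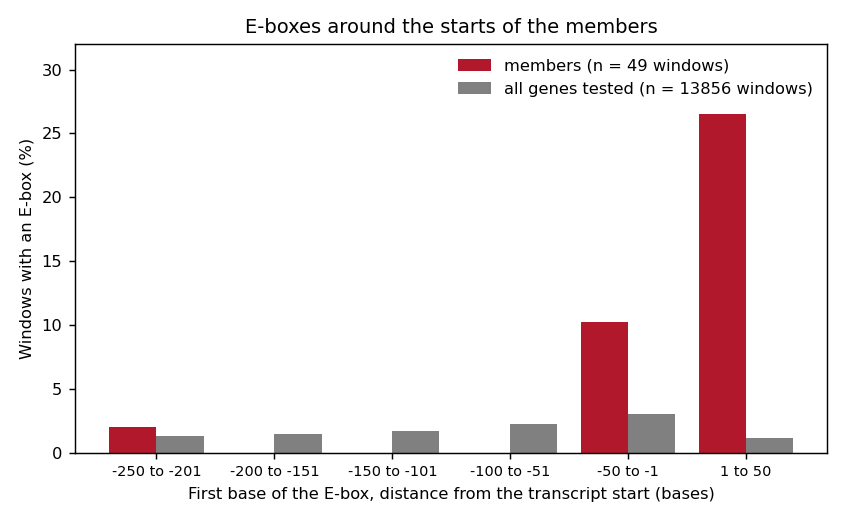
Percentage of promoter windows (y axis) with an E-box whose first base lies in each 50-base bin around the transcript start (x axis, in bases; negative is upstream), for the 49 windows of members and the 13856 windows of genes tested. In the bin just after the start the member bar is 26.5% and the bar of genes tested 1.18%.

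Other short motifs in the 250 bases upstream were counted on both strands. All windows here include those of genes not tested, unlike the members, and shares over the genes tested were not computed for these motifs. The core recognised by ETS-family factors (CCGGAAG) was in 34.7% of member windows and 8.52% of all windows. A GC box (GGGCGG) was in 67.3% of member windows and 42.6% of all windows. The CCAAT box was in 38.8% of member windows and 32% of all windows. A GATA core (AGATAA) was in 2.04% of member windows and 9.17% of all windows. The median GC content was 63.6% in member windows and 58.0% in all windows, and GC-rich motifs are more frequent in GC-rich sequence.

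The 5 nucleolar scaffold, chaperone and remodelling genes were all lower, with a median log2 fold change of -0.98, and their summed level was 35.8% of control. NPM1 gave 3176 of the 5666.6 TPM of that sum in controls, and the other genes of the group stood at 41.2 to 58.1% of control. NPM1 (ENSG00000181163, chr5:171387116-171411810), the abundant nucleolar chaperone nucleophosmin, measured 2812, 3298 and 3418 TPM in the controls, in replicate order, and 759, 689 and 555 TPM in the knockdown replicates. It was the most abundant member in controls and fell the most of the 48, to 21.0% of control (log2 fold change -2.26, SE 0.125, adjusted p = 2.5e-05). The tables also list 49 NPM1 pseudogenes, between which and NPM1 reads can be divided. With their rows added the level was 3434 ± 312 TPM in controls and 727.1 ± 108 TPM in knockdown (SD, n = 3 each), a log2 difference of -2.24. NOLC1 (ENSG00000166197, chr10:102152176-102163871), a phosphoprotein chaperone of snoRNPs, stood at 342, 364 and 352 TPM in controls and 166, 132 and 138 TPM in knockdown (log2 fold change -1.28, SE 0.0881, adjusted p = 4.1e-05). NCL (ENSG00000115053, chr2:231453531-231483641), nucleolin, which binds nascent ribosomal RNA precursor, stood at 1584, 1522 and 1564 TPM against 948, 892 and 875 TPM (log2 fold change -0.78, SE 0.0547, adjusted p = 4.3e-05). All 3 genes had every knockdown library below every control, and NCL had the smallest fold of the group. GNL3, which encodes the GTPase nucleostemin, and DDX21, an RNA helicase, fell to 50.8% and 54.6% of control.

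The 4 box C/D snoRNP genes were all lower, but by unequal amounts. FBL, NOP56 and NOP58 encode core proteins of the particles that place 2′-O-methyl groups on ribosomal RNA. RRP9 (ENSG00000114767, chr3:51933429-51941904), the protein specific to the U3 particle, stood at 74.2, 68.1 and 72.5 TPM in controls and 33.2, 26.6 and 26.7 TPM in knockdown (log2 fold change -1.29, SE 0.0965, adjusted p = 5.4e-05). FBL (ENSG00000105202, chr19:39834458-39846379), fibrillarin, the methyltransferase itself, stood at 1287, 1234 and 1248 TPM against 769, 661 and 661 TPM (log2 fold change -0.85, SE 0.0718, adjusted p = 8.2e-05). NOP56 (ENSG00000101361, chr20:2652593-2658393), a core scaffold protein, stood at 371, 384 and 391 TPM against 263, 209 and 253 TPM (log2 fold change -0.67, SE 0.0886, adjusted p = 0.000567). The groups did not overlap for any of these. Its partner in the same particle, NOP58, fell less, to 83.3% of control (log2 fold change -0.26, SE 0.0589, adjusted p = 0.0069). The ratio of NOP56 to NOP58 was 1.53, 1.43 and 1.49 in controls and 1.18, 0.979 and 1.21 in knockdown, with no overlap. An exact 2-sided permutation test on 3 against 3 libraries gave p = 0.1, which is the smallest this design allows, and this pair and those below were chosen after their values were seen. Over the 8 ratios compared, the smallest Benjamini-Hochberg adjusted value was 0.133, so no ratio passed the threshold.

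Several members also carry snoRNA genes in their introns, so that 1 transcript serves both the protein and the guide RNA. In GENCODE v29, 26 snoRNA or scaRNA genes lie within 8 members (GNL3, NCL, NOP56, NOP58, POLR1C, PPAN, TSR1 and WDR43), 17 of them outside any exon of the host. All 8 hosts were lower in the knockdown, beside 44 of all 48 members and 31.5% of all genes tested, so this count does not set the hosts apart. The following box C/D RNAs are shown because NCL and NOP58 carry them and FBL, NOP56 and NOP58 are the proteins that bind such RNAs. The C box (TGATGA) and the D box (CTGA) are in capitals, in the DNA letters of the GENCODE v29 transcript.
SNORD20 in NCL, chr2:231456444-231456523, minus strand: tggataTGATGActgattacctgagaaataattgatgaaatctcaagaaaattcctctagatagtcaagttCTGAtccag
SNORD82 in NCL, chr2:231460371-231460440, minus strand: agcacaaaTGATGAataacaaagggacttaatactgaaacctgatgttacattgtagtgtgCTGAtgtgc
SNORD11 in NOP58, chr2:202293051-202293134, plus strand: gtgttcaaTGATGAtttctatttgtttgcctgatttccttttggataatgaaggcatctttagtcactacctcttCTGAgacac
Levels of the snoRNAs themselves were not analysed here, since the libraries were selected for poly(A) RNA.

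Of the 15 small-subunit processome and 40S assembly genes, 14 were lower and LTV1 did not pass, with a median log2 fold change of -0.78. RRP12 (ENSG00000052749, chr10:97356358-97426076), a HEAT-repeat protein needed for late processing and export of the 40S particle, stood at 59.5, 58.3 and 63.8 TPM in controls and 17.9, 13.5 and 12.5 TPM in knockdown. It fell to 24.2% of control (log2 fold change -1.99, SE 0.127, adjusted p = 3.4e-05). UTP20 (ENSG00000120800, chr12:101280105-101386618), a large component of the processome, stood at 34.3, 34.1 and 36.9 TPM against 16.2, 14.0 and 14.0 TPM (log2 fold change -1.20, SE 0.0836, adjusted p = 4.3e-05). NAT10 (ENSG00000135372, chr11:34105617-34147670), the acetyltransferase of 18S rRNA, stood at 99.8, 131 and 105 TPM against 46.7, 41.4 and 40.1 TPM (log2 fold change -1.36, SE 0.113, adjusted p = 7.7e-05). The control spread of NAT10 was wide, with replicate 2 the highest, yet the groups did not overlap.

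The other processome genes fell less evenly. NOL6, a UTP-C component, and DDX10, an RNA helicase, stood at 40.9% and 44% of control. NOP14 stood at 52.6%, and the UTP-A components UTP4, UTP15, WDR43 and WDR75 stood at 57.5%, 56.5%, 58.0% and 62.6%. NOL10 and NOC4L stood at 59.4% and 62.3%. Of the remaining genes, TSR1 stood at 67.3% of control, BYSL at 82.2% (log2 fold change -0.28, adjusted p = 0.00874) and LTV1 at 92.6% (-0.11, adjusted p = 0.183).

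Of the 16 genes for 60S assembly, 15 were lower and DDX56 did not pass, with a median log2 fold change of -0.83. NOP16 (ENSG00000048162, chr5:176383946-176388927), a nucleolar protein of early 60S particles, stood at 164, 158 and 166 TPM in controls and 69.8, 53.7 and 59.1 TPM in knockdown (log2 fold change -1.41, SE 0.0942, adjusted p = 3.7e-05). RRP1 (ENSG00000160214, chr21:43789513-43805293), another early 60S factor, stood at 87.0, 82.9 and 97.6 TPM against 37.0, 29.9 and 34.5 TPM (log2 fold change -1.38, SE 0.0971, adjusted p = 4.5e-05). PES1 (ENSG00000100029, chr22:30576625-30607083), which acts with BOP1 and WDR12 in the PeBoW complex, stood at 280, 268 and 267 TPM against 161, 148 and 152 TPM (log2 fold change -0.82, SE 0.055, adjusted p = 3.7e-05). Every knockdown library was below every control for all 3 genes.

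Ratios between members that act together were compared in each library. In the PeBoW complex, PES1 stood at 56.5%, BOP1 at 52.3% and WDR12 at 59.3% of control. The ratio of BOP1 to PES1 was 0.821 ± 0.0117 in controls and 0.759 ± 0.0546 in knockdown (SD, n = 3 each) and overlapped (exact permutation p = 0.2). The ratio of WDR12 to PES1 was 0.144 ± 0.00671 and 0.151 ± 0.0133 and overlapped as well (SD, n = 3 each, exact permutation p = 0.7). For NOC3L to NOC2L, a pair of interacting 60S factors, the ratio went from 0.371 ± 0.00969 to 0.245 ± 0.0198 with no overlap (SD, n = 3 each, exact permutation p = 0.1). For GNL3 to GNL2, a pair of related nucleolar GTPases, it went from 1.29 ± 0.099 to 0.754 ± 0.0996 with no overlap (SD, n = 3 each, exact permutation p = 0.1). With 3 libraries per group this p cannot be lower, and none of these ratios passed the threshold after adjustment. The unequal falls within both pairs were already known when the pairs were picked, so the ratios are no separate support. How often other pairs of genes show no overlap was not computed, so no difference between these pairs and the PeBoW pairs is drawn. RRS1, a factor that helps install the 5S RNP, stood at 48.8% of control, NOP2, which methylates 28S rRNA, at 52.4%, EBNA1BP2 at 50.9%, NIP7 at 55.4%, MRTO4 at 58.3%, PPAN at 64.3% and DDX18 at 71.1%. GNL2 passed narrowly at 86.4% of control (log2 fold change -0.21, adjusted p = 0.0205), and DDX56, an RNA helicase, stood at 96.7% with overlapping groups (-0.05, adjusted p = 0.478).

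RNA polymerase I showed the most mixed picture of the role groups. Of 8 genes, 6 were lower, UBTF was higher and RRN3 did not pass, with a median log2 fold change of -0.58 and a summed level of 84.5% of control. POLR1A (ENSG00000068654, chr2:86020216-86106155), the largest catalytic subunit, stood at 51.0, 51.7 and 51.7 TPM in controls and 23.5, 21.5 and 22.4 TPM in knockdown (log2 fold change -1.16, SE 0.0637, adjusted p = 2.4e-05). POLR1E (ENSG00000137054, chr9:37485948-37503697), a subunit of the polymerase I-specific heterodimer, stood at 98.2, 89.3 and 98.6 TPM against 57.7, 48.5 and 46.3 TPM (log2 fold change -0.90, SE 0.0923, adjusted p = 0.000175). POLR1C (ENSG00000171453, chr6:43509702-43562419), an assembly subunit shared with RNA polymerase III, stood at 95.5, 105 and 100 TPM against 75.9, 61.9 and 59.3 TPM (log2 fold change -0.61, SE 0.0976, adjusted p = 0.00139). The groups of these 3 genes did not overlap.

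UBTF (ENSG00000108312, chr17:44205033-44221626), the upstream binding factor that occupies ribosomal DNA, went the other way. It stood at 162, 167 and 168 TPM in controls and 215, 200 and 219 TPM in knockdown, 128% of control (log2 fold change 0.35, SE 0.0563, adjusted p = 0.00143), with every knockdown library above every control. The ratio of UBTF to POLR1A was 3.18, 3.23 and 3.24 in controls and 9.15, 9.28 and 9.82 in knockdown (n = 3 each, exact permutation p = 0.1). Its lack of overlap and this p were fixed by the opposite, non-overlapping changes of these genes, so the ratio is no separate support. POLR1B and POLR1F stood at 63.7% and 67.4% of control. POLR1D, which is also shared with RNA polymerase III, passed narrowly at 88.6% (log2 fold change -0.17, adjusted p = 0.0301), and RRN3, the initiation factor that recruits the polymerase, stood at 89.5% with overlapping groups (-0.15, adjusted p = 0.132). POLR1D and GNL2 lost their calls in several alternative settings.

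**Figure D4:**
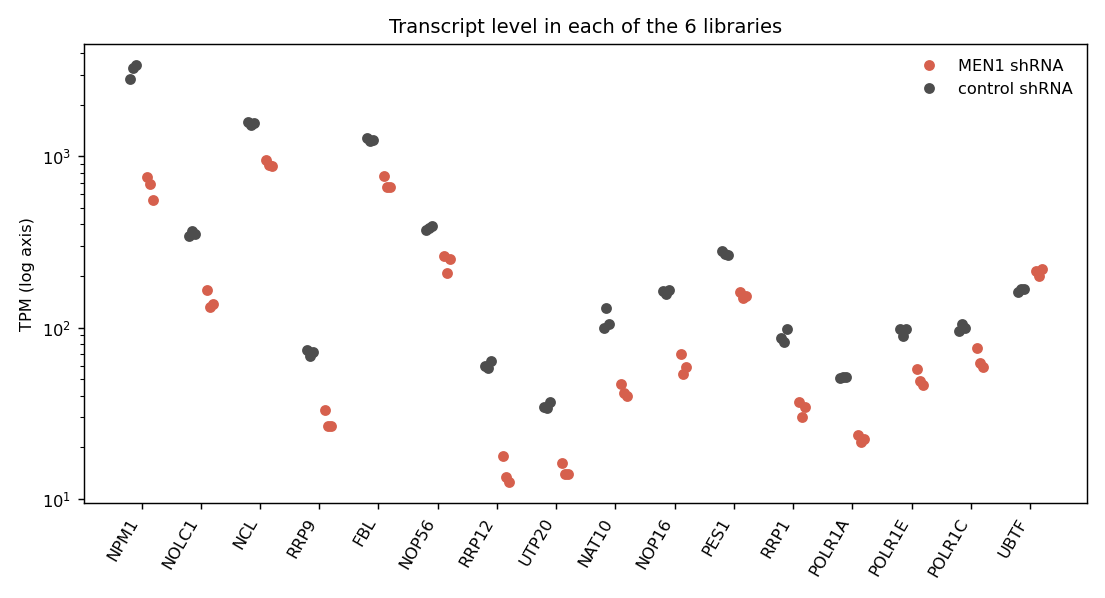
TPM (y axis, log scale) in each of the 6 libraries for the 16 members whose library values are given in the text (x axis); dots are single libraries, grey for control and red for MEN1 knockdown. For every gene except UBTF the red dots lie below the grey ones, and for UBTF they lie above.

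Reads of some members cannot be assigned with certainty. For 11 members (GNL3, UTP4, UTP15, TSR1, LTV1, NOP16, WDR12, PPAN, NIP7, POLR1C and RRN3) another gene with a mean of 5 TPM or more overlaps the locus, and 12 members have pseudogenes named after them. Their values rest on how the authors' quantification divided the reads.

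Other genes of the ribosome biogenesis pathway were examined in 5 lists. Of their 114 genes, 86 were lower (75.4%, against 31.5% of all genes tested), 5 were higher (4.39%, against 22.1%) and 23 did not pass, with a median log2 fold change of -0.58. Among 38 other processome and 40S factors, 30 were lower and 2 higher (median -0.68). DCAF13 stood at 34.4% of control (log2 fold change -1.52, adjusted p = 2.4e-05) and UTP11 at 48.4% (-1.03, adjusted p = 3.5e-05), while RRP36 (0.39, adjusted p = 0.000857) and UTP3 (0.48, adjusted p = 0.00108) rose. Among 42 other 60S factors, 33 were lower and 2 higher (median -0.51). WDR74 (-0.94, adjusted p = 5.6e-05) and NSA2 (-0.78, adjusted p = 6.4e-05) fell, while the 60S export adaptor NMD3 (0.37, adjusted p = 0.0022) and RSL24D1 (1.11, adjusted p = 0.00253) rose.

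Of 11 genes for box H/ACA particles, which place pseudouridines, and for snoRNP assembly, 9 were lower and 0 higher (median -0.80). They include the assembly factor SHQ1 (-1.06, adjusted p = 4.6e-05) and the core protein GAR1 (-0.80, adjusted p = 6.8e-05). The RNA exosome, which trims precursor rRNA, had 8 lower and 1 higher of 14 (median -0.36), with EXOSC5 (-1.17, adjusted p = 0.000757) and the helicase MTREX (-0.40, adjusted p = 0.000954) lower and EXOSC9 (0.50, adjusted p = 0.000575) higher. Of 9 other RNA polymerase I factors, 6 were lower and 0 higher (median -0.85), with POLR1G (-1.56, adjusted p = 8.4e-05) and POLR1H (-1.15, adjusted p = 6e-05) at 33.1% and 44% of control.

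RNA polymerase III, which makes the 5S rRNA, had 12 lower and 2 higher of 21 (median -0.31). The 5S-specific factor GTF3A (-1.0, adjusted p = 6.1e-05) and BRF1 (-0.85, adjusted p = 9.3e-05) were lower. GTF3C5 (0.22, adjusted p = 0.0184) and POLR3C (0.23, adjusted p = 0.0257) were higher, and both calls were lost without control replicate 1, without control replicate 2 or without knockdown replicate 2, when 0 genes of the list were called higher, and 1 remained called without knockdown replicate 3.

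MYC, whose protein is known to drive ribosome production, stood at 227, 240 and 231 TPM in controls and 91.9, 63.7 and 66.8 TPM in knockdown (log2 fold change -1.65, SE 0.13, adjusted p = 6.4e-05), 31.9% of control. Its level was highest in replicate 1 within the knockdown group, and how many of all genes share that order was not computed. Of the 8 MYC, MAX and MXD genes, 3 were lower (37.5%) and 2 higher (25%), near the shares of all genes tested (31.5% and 22.1%), with a median of 0.02. MXD3 (1.30, adjusted p = 0.000178) and MXI1 (0.55, adjusted p = 0.000474) rose, and MXD1 (-0.70, adjusted p = 0.000768) fell. All 3 encode partners of MAX that oppose MYC, so such partners did not move in 1 direction. Another 3 genes of the list did not pass, among them MXD4 and MNT, which encode partners of the same kind. With FPKM, with either rescaling, with quantile normalization or with a filter on mean TPM, 4 genes of this list were called higher. Whether the change of MYC bears on the members was not tested.

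For comparison, 78 cytosolic ribosomal protein genes, the structural parts of the finished ribosome, had 45 lower and 1 higher, with a median log2 fold change of -0.24. That count fell to 20 under median-of-ratios scaling, to 21 with no filter on low values and to 27 under quantile normalization. Of 27 DNA replication genes, 6 were lower and 9 higher, with a median of 0.00. Both lists stand beside backgrounds of 31.5% lower and 22.1% higher, and the difference between lists was not tested.

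**Figure D5:**
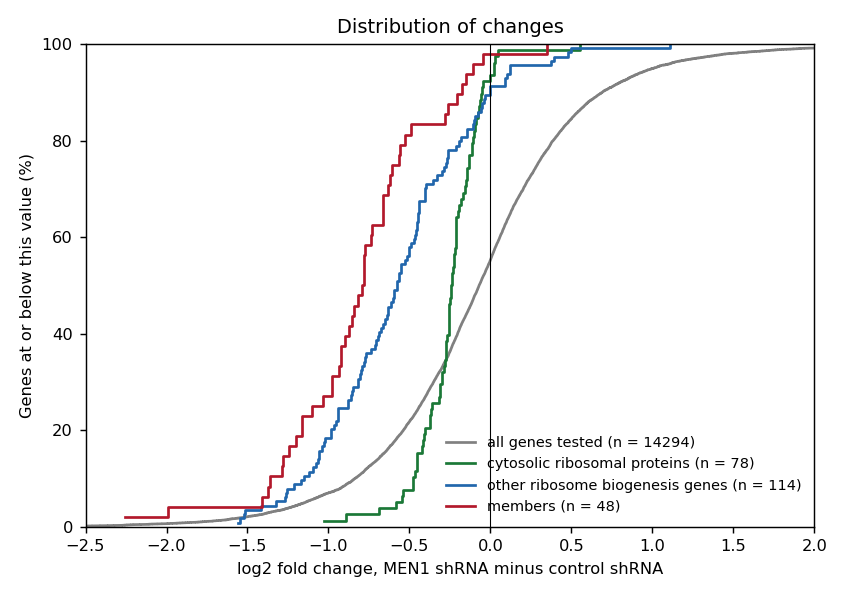
Cumulative percentage of genes (y axis) at or below each log2 fold change (x axis, MEN1 shRNA minus control shRNA) for the 48 members, the 114 other ribosome biogenesis genes, the 78 cytosolic ribosomal proteins and all 14294 genes tested. The curves cross 50% at -0.79, -0.58, -0.24 and -0.07.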

How the data were processed

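Poly(A)-selected, directional RNA-seq libraries were made from 6 HUDEP-2 cultures, 3 per group, per the labels' protocols. Per the submitters' processing notes the tools were FastQC, Trimmomatic, STAR 2.7.1a, Picard 2.20.4 and StringTie 2.0.4, with build hg38. Neither the annotation nor the strand setting is given in the sources used here. Each deposited table gives coverage, FPKM and TPM per gene, per the file headers, with TPM scaled by the authors to a fixed total. In control replicate 2, 1 deposited TPM and 2 deposited coverage values lay just below 0 and were set to 0. Read counts were not used here, so no count model was fitted. Depth was inferred from the ratio of coverage to FPKM in single-transcript genes, and the most frequent product of coverage and length in low single-exon genes, 302 bases, was taken as 1 read pair.

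The 14294 genes reaching 1 TPM in 3 or more libraries were kept. Their log2(TPM + 1) values entered a 2-sided limma fit (limma 3.58.1, R 4.3.3; lmFit, eBayes with a trend). P-values were adjusted by Benjamini-Hochberg across these genes, with 0.05 as the threshold. The pseudocount of 1 understates changes of low genes, and TPM is a share, so more globin RNA leaves a smaller share for other transcripts. The script was tested on simulated data. The members and lists were chosen with earlier results of these data known, so no list was given a p-value. Library values are given for the 3 members per role group with the lowest adjusted p, the one with the largest change, and any against its group's direction; from other lists, at most 2 genes per direction. Coordinates are those of the deposited tables, which overlap GENCODE v29 for all 48 members. Alternatives covered the pseudocount, the filter, FPKM, the scaling, library weights, the trend, a replicate block, leaving out each library, and the promoter window.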

Additional observations from a re-analysis of the deposited data

How the results depend on the processing

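Among the counts of members, their median and sum, the MEN1 value, the all-gene counts and the motif counts, 125 of 126 comparisons with an alternative kept their direction and stayed within the set tolerance. The exception was the number of members with CACGTG, which was 5 with the window of 250 bases upstream and 18 with 50 bases downstream included. The tolerance allowed counts to shift, as the ranges below show. Among the counts per list, 14 of 512 comparisons moved beyond it. With each library left out in turn, 42 to 44 members were lower and 12 to 18 changed at least 2-fold (18 without knockdown replicate 1). Their median was -0.86 to -0.76, their summed level 47.6 to 50.7% of control and the MEN1 change -2.46 to -2.38. Over all genes there were 3688 to 4405 lower and 2432 to 2912 higher.

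For single members, 749 of 768 comparisons kept both direction and call. DDX56, not called in the main test, changed sign to 0.02 when globin and mitochondrial genes were removed before rescaling, 0.04 with median-of-ratios scaling and 0.03 with quantile normalization. POLR1D lost its call in 10 settings and GNL2 in 5, and RRN3 passed (adjusted p = 0.0447, limma) without control replicate 1. The cause was not tested. With the replicate block, 43 members were lower and 1 higher, 13 changed at least 2-fold, and over all genes 4117 were lower and 2895 higher. The block removed the 2 higher calls of the RNA polymerase III list, leaving 0. Same-numbered libraries did not deviate together (correlations 0.017, -0.027 and -0.012), so the numbers were not treated as pairs. The scalings shifted the all-gene median by up to 0.078, and the share of all calls that were lower from 58.8% to 50.5% with median-of-ratios scaling. With 3 libraries per group, small changes such as those of LTV1 and DDX56 cannot be resolved.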
